A study of Homo sapiens with 8 samples.

Results

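Epithelial and mesenchymal state was read from 10 genes in FT293 cells, a HEK293 derivative from human embryonic kidney: CDH1, EPCAM and JUP on the epithelial side, CDH2 and VIM on the mesenchymal side, and the transcription factors SNAI1, SNAI2, ZEB1, ZEB2 and TWIST1. Every noncontrol probe that the array design assigns to these gene names was taken, which gave 15 of the 50599 probes, and each probe was kept apart. FT293 cells carry 1 transgene, placed by Flp recombinase at a single genomic site and switched on by tetracycline. The lines expressed GFP alone or a GFP-tagged HuR, TIA1 or TIAR, so the GFP line shares the tag, the site and the tetracycline with the others but has no added RNA-binding protein. RNA from day 3 of tetracycline was read on 8 one-colour arrays, and each line has 2 of them, which the series describes as biological replicates made independently. One label of TIA1 replicate 2, the source name, reads GFP-TIA2 where its title and genotype read GFP-TIA1, and the array was kept in the TIA1 group.

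Epithelial cells hold together through E-cadherin (CDH1) at adherens junctions, through desmosomes and through adhesion molecules such as EPCAM. When cells move towards a mesenchymal state, N-cadherin (CDH2) and the intermediate filament protein vimentin (VIM) typically replace this program. The zinc-finger repressors of the Snail (SNAI1, SNAI2) and ZEB (ZEB1, ZEB2) families bind E-boxes in epithelial promoters, and TWIST1 is a basic helix-loop-helix factor of the same network. TIA1, TIAR and HuR are RNA-binding proteins that recognise U-rich and AU-rich sequences and act on splicing, RNA stability and translation. HEK293 cells are not a plain epithelium, since they are known to carry neuronal intermediate filaments and vimentin beside simple keratins.

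Probe sequences are shown for a gene of each class in which the probe lies in coding sequence, as the letters behind the values below. The vimentin probe crosses an exon junction, and its hg19 ends (chromosome 10, 17278347 to 17279256, plus strand) lie 910 bases apart for a 60-base oligonucleotide. The ZEB2 probe maps to the minus strand of chromosome 2 from 145182363 to 145182422. The TWIST1 probe maps to the minus strand of chromosome 7 from 19156462 to 19156521.
VIM A_23_P161190: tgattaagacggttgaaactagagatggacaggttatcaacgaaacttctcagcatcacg
ZEB2 A_33_P3243832: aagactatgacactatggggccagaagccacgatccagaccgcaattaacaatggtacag
TWIST1 A_33_P3414591: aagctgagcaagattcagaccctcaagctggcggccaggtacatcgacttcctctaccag

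JUP was called higher in both TIA lines, and its promoter is shown because Snail and ZEB factors recognise the E-box CAGGTG, which reads CACCTG on the other strand. RefSeq promoter windows on GRCh38.p14 matched 5 of the 10 genes, JUP, CDH2, VIM, ZEB1 and ZEB2. Each window was read over the 250 bases before a start site, on both strands. JUP has separate start sites, and the windows lie on the minus strand at chr17:41786712-41786961 and chr17:41785977-41786226. E-boxes are in capitals.
JUP, start site farther upstream: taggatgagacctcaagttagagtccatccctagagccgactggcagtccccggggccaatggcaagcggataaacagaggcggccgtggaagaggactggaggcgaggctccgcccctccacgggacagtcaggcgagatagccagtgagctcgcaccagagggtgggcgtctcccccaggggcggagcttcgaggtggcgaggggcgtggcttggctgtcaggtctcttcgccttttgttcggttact
JUP, start site farther downstream: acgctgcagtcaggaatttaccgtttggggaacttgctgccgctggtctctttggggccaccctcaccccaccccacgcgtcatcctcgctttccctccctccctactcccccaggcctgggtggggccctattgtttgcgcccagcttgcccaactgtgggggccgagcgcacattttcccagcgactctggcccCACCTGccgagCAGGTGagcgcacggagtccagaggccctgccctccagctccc
The downstream window holds 2 E-boxes, which begin at positions -54 and -43 from the start site, and the upstream window holds 0. Of the 7 ZEB1 windows, 1 holds 1 E-box and 1 holds 2, and the CDH2, VIM and ZEB2 windows hold 0. Over all 35116 promoter windows of that length, 17.5% hold a CAGGTG E-box and 61.8% hold the looser CANNTG. A match of letters is no evidence of binding.

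Probes were compared within themselves across arrays, as the log2 processed signal relative to the 75th percentile of the array, hereafter the log2 signal. Between 53.2% and 58.5% of all probes were well above background on 7 arrays, while GFP replicate 1 had 86.0% and a mean background intensity of 83.2, where the others had 35.7 to 41.5. Replicate arrays correlated at r = 0.993 to 0.997 over probes in the HuR, TIA1 and TIAR lines and at 0.947 in the GFP line, where 15.8% of probes differed by over 2-fold between the replicates. The TIAL1 probe A_23_P161488, which reads the TIAR gene, had a log2 signal of 4.87 and 4.98 on the TIAR arrays and between 1.63 and 2.52 on the other 6. The probes of TIA1 and ELAVL1, the HuR gene, were not raised in their own lines, so they do not check which protein an array belongs to. Of 10 HEK293 markers, 8 to 10 were well above background on each array, a gene being counted where at least 1 of its probes was. Of 8 fibroblast markers 2 to 5 were well above background on an array, PDGFRA and COL1A1 on all 8 arrays and COL3A1, PDGFRB and THY1 on none. Of the 4 leukocyte markers on the array 2 to 4 were, with CD14 on all 8 arrays. PTPRC was on all 8 at A_33_P3364808 but on at most 3 at each of its other probes. Of 6 markers of mature epithelium 1 to 3 were, MUC1 on all 8 arrays (on 4 at its other probe) and KRT5 and EHF on none. As multiples of the 75th percentile, the summed signals on GFP replicate 1 were 2.85 (fibroblast), 2.85 (leukocyte) and 1.34 (mature epithelium), against 0.28 to 1.09, 0.47 to 1.26 and 0.17 to 0.39 on the other arrays, and their part in the results was not tested. In bulk RNA, fewer cells of a type and less RNA per cell cannot be told apart.

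**Figure D1:**
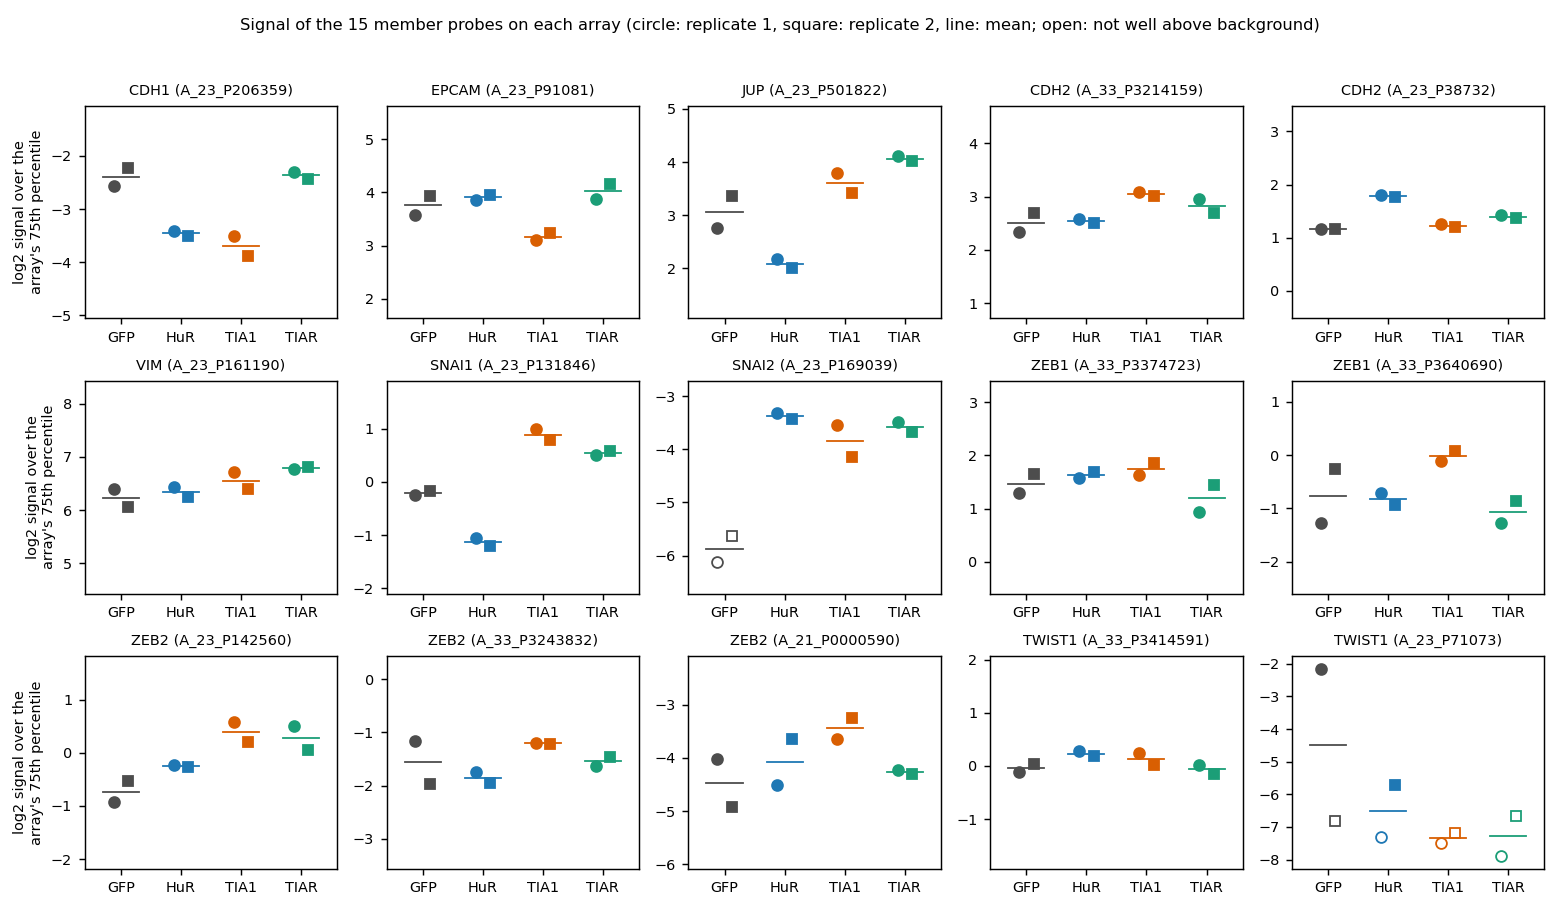
Log2 signal relative to the 75th percentile of the array (y axis) of the 15 probes in each line (x axis). Circles are replicate 1, squares replicate 2, lines the means of 2 arrays and open symbols arrays on which the probe was not well above background. All panels span at least 4 log2 units. SNAI1 and JUP are highest in the TIA lines and lowest in HuR, SNAI2 is at background in GFP, and CDH1 is lower in HuR and TIA1 than in TIAR.

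Plakoglobin (JUP), the catenin that links cadherins to the cytoskeleton in both adherens junctions and desmosomes, was higher in both TIA lines than in HuR-expressing cells. Its log2 signal was 3.79 and 3.42 on the TIA1 arrays, 4.11 and 4.02 on the TIAR arrays, 2.18 and 2.01 on the HuR arrays and 2.76 and 3.36 on the GFP arrays (hg19 chromosome 17, 39911150 to 39911209, minus strand). The arrays of the 4 lines did not overlap, and GFP lay between HuR and TIA1. The increase of JUP in TIA1 versus HuR was 1.51 on the log2 scale (standard error, SE, 0.16, limma adjusted p = 0.00584), or 2.85-fold. JUP rose 3.92-fold in TIAR versus HuR (log2 fold change 1.97, SE 0.11, limma adjusted p = 0.0041). The same HuR arrays served both comparisons. Without HuR replicate 1 or 2 the adjusted p of JUP in TIA1 versus HuR went past 0.05, to at most 0.0556, and in TIAR versus HuR it reached 0.0525 without HuR replicate 1.

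E-cadherin (CDH1), the defining epithelial cadherin, was lower in TIA1- and HuR-expressing cells than in TIAR-expressing cells. Its log2 signal was -2.57 and -2.23 in GFP, -3.41 and -3.51 in HuR, -3.51 and -3.89 in TIA1, and -2.30 and -2.43 in TIAR (hg19 chromosome 16, 68869214 to 68869273, plus strand). TIAR and GFP overlapped and lay above HuR and TIA1 on this scale, while the place of GFP moved with the scaling, as given with the comparisons against GFP. CDH1 rose 2.13-fold in TIAR versus HuR (log2 fold change 1.09, SE 0.11, limma adjusted p = 0.00766). In the direct test of TIAR versus TIA1, CDH1 rose 2.52-fold (log2 fold change 1.33, SE 0.17, limma adjusted p = 0.0397). In TIA1 versus HuR its log2 fold change was -0.24 (SE 0.16, limma adjusted p = 0.282). The TIAR versus HuR difference fell under 2-fold, to log2 fold changes of 0.56 to 0.89, with normexp background correction, quantile normalization, both, the deposited log2 table or scaling by the median, and its call was lost without HuR replicate 1 (1.14) or 2 (1.04). In TIAR versus TIA1, the call of CDH1 was lost with normexp correction (0.87), both corrections together (0.88), the deposited table (0.81), no filter on dim probes (1.33) and the replicate block (1.33), as well as without any 1 of the 4 arrays (1.14 to 1.52). With no filter, with the replicate block or without 1 array, all or nearly all calls over all probes were lost too.

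The array carries the CDH1 probe 10 times, which gives its technical spread directly. After outlier copies were left out, 8 to 10 copies remained on each array, and all 10 were well above background on each. The copies ranged from -2.55 to -1.98 on TIAR replicate 1, from -2.72 to -2.13 on TIAR replicate 2, from -3.79 to -3.23 on TIA1 replicate 1 and from -4.16 to -3.74 on TIA1 replicate 2. On the HuR arrays they ranged from -3.55 to -3.30 and from -3.64 to -3.36. Every kept TIAR copy thus lay above every kept HuR and TIA1 copy. The standard deviation among copies was 0.06 to 0.20 within an array, and copies of 1 array are not replicates of a line.

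**Figure D2:**
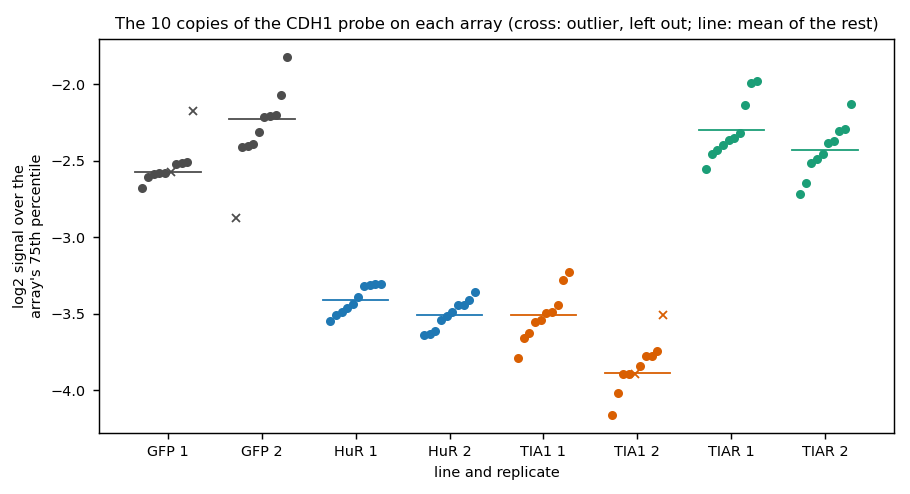
Log2 signal relative to the 75th percentile of the array (y axis) of the 10 CDH1 copies on each array (x axis, line and replicate). Copies stand in order of value, points are copies kept, crosses are outlier copies left out and lines are means of the kept copies. On this scale the TIAR and GFP copies lie above the HuR and TIA1 copies, outlier copies included.

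EPCAM, a surface glycoprotein of simple epithelia, was lower in TIA1- than in HuR-expressing cells. The TIA1 arrays had log2 signals of 3.10 and 3.24, below the 3.87 and 3.95 in HuR, 3.88 and 4.16 in TIAR and 3.58 and 3.94 in GFP, the other 3 lines overlapping. The log2 fold change in TIA1 versus HuR was -0.74 (SE 0.10, limma adjusted p = 0.00997), which is 1.67-fold lower and under the fold needed for a call. In TIAR versus TIA1 the log2 fold change was 0.85 with an adjusted p of 0.0601. In TIA1 versus GFP it was -0.59 (limma adjusted p = 0.251), and over the alternatives it ranged from -0.815 to 0.109. JUP and EPCAM therefore differed in opposite directions in TIA1 versus HuR, both with an adjusted p under 0.05.

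N-cadherin (CDH2) was read by separate probes that did not move together. Probe A_33_P3214159 lies on the minus strand of hg19 chromosome 18 from 25530936 to 25530995, and A_23_P38732 lies from 25532081 to 25532140. The former had log2 signals of 3.09 and 3.01 in TIA1 and 2.59 and 2.51 in HuR, while the latter had 1.25 and 1.20 in TIA1 and 1.80 and 1.76 in HuR. In TIA1 versus HuR the log2 fold change was 0.50 (SE 0.10, limma adjusted p = 0.02) at the first and -0.56 (SE 0.09, limma adjusted p = 0.0139) at the second. The values in TIAR versus HuR were 0.28 (adjusted p = 0.178) and -0.38 (adjusted p = 0.0469). None of these reached 2-fold, and a direction for CDH2 as a gene cannot be given. GFP had 2.33 and 2.70 at the first probe and 1.16 and 1.17 at the second, so that HuR was the highest line at the second probe but not at the first.

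Vimentin (VIM) varied little among the lines. The log2 signal was 6.40 and 6.06 in GFP, 6.44 and 6.25 in HuR, 6.71 and 6.40 in TIA1 and 6.78 and 6.80 in TIAR. GFP, HuR and TIA1 overlapped, and TIAR lay above them. In TIAR versus HuR the log2 fold change was 0.45 (limma adjusted p = 0.049), a 1.36-fold difference that missed the fold needed for a call. In TIA1 versus HuR it was 0.21 (adjusted p = 0.324).

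SNAI1, the Snail repressor of CDH1, was higher in both TIA lines than in HuR-expressing cells. Its log2 signal was 1.00 and 0.78 in TIA1, 0.50 and 0.57 in TIAR, -0.24 and -0.18 in GFP and -1.07 and -1.20 in HuR (hg19 chromosome 20, 48605170 to 48605229, plus strand). The lines did not overlap, with both TIA lines above GFP and HuR below it. SNAI1 rose 4.06-fold in TIA1 versus HuR (log2 fold change 2.02, SE 0.12, limma adjusted p = 0.00258), and in all 13 limma alternatives it was called, at log2 fold changes of 1.74 to 2.13. It rose 3.18-fold in TIAR versus HuR (log2 fold change 1.67, SE 0.10, limma adjusted p = 0.00453). That call was kept in 11 of 13 alternatives and missed only without HuR replicate 1 or 2, where the adjusted p was at most 0.0559. TIAR and TIA1 were not separated by the test (log2 fold change -0.35, adjusted p = 0.211). SNAI1 and CDH1 were thus both higher in TIAR than in HuR, and in TIA1 SNAI1 was higher with no call for CDH1.

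SNAI2, or Slug, a close relative of SNAI1 with the same E-box target, was not well above background on either GFP array and was measured in the other 3 lines. Its log2 signal was -6.12 and -5.63 on the GFP arrays, against -3.31 and -3.43 in HuR, -3.54 and -4.14 in TIA1 and -3.49 and -3.67 in TIAR. The GFP arrays lay below all the others, HuR lay highest, and TIA1 and TIAR overlapped. With the GFP level set, array by array, to whichever was higher, the signal of SNAI2 itself or the dimmest probe still well above background, SNAI2 was at least 4.88-fold higher in HuR, at least 4.23-fold higher in TIAR and at least 3.53-fold higher in TIA1. The adjusted p-values from limma were 0.162, 0.165 and 0.107, so that none was called on the 4 arrays of each comparison. Over the alternatives, the log2 fold change of SNAI2 versus GFP ranged from 1.04 to 3.45 in HuR. It ranged from 0.99 to 2.97 in TIAR and from 0.88 to 2.73 in TIA1, so the bounds hold for the main processing alone. With all 8 arrays in one fit SNAI2 was called in each of the 3, and so it was with either GFP array left out. GFP replicate 1, the array with the high background, had the lower SNAI2 signal of the GFP arrays. Between the lines of the RNA-binding proteins, log2 fold changes of SNAI2 were -0.47 to 0.26 with adjusted p-values of 0.166 to 0.551.

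The ZEB repressors had several probes each. ZEB1 A_33_P3640690 had log2 signals of -0.11 and 0.07 in TIA1, -0.71 and -0.94 in HuR, -1.28 and -0.87 in TIAR and -1.27 and -0.27 in GFP, so that TIA1 was the highest. Its log2 fold change was 0.80 in TIA1 versus HuR (SE 0.13, limma adjusted p = 0.0142), and -1.05 in TIAR versus TIA1 (SE 0.18, limma adjusted p = 0.0601), past 2-fold but over the p threshold. The other ZEB1 probe, A_33_P3374723, had log2 signals of 1.64 and 1.86 in TIA1 and 1.57 and 1.68 in HuR, with a log2 fold change of 0.12 (adjusted p = 0.467). It ranged from 0.94 to 1.64 on the GFP and TIAR arrays, and no line stood apart from the next. The ZEB1 probes agreed in sign in TIA1 versus HuR but not in size, and the sign of the second flipped in 3 of 13 alternatives.

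ZEB2 probe A_23_P142560 had log2 signals of 0.57 and 0.20 in TIA1, 0.51 and 0.05 in TIAR, -0.23 and -0.26 in HuR and -0.93 and -0.53 in GFP. TIA1 and TIAR overlapped, HuR lay below them, and GFP was lowest. In TIA1 versus HuR the log2 fold change was 0.63 (limma adjusted p = 0.0367), and the probe printed above, A_33_P3243832, had 0.64 (limma adjusted p = 0.0168). The probe of the noncoding transcript NR_033258, A_21_P0000590, also had 0.64 but with an SE of 0.33 and an adjusted p of 0.191. All ZEB2 probes thus had like log2 fold changes in TIA1 versus HuR, under 2-fold. The log2 fold changes in TIAR versus HuR were 0.53, 0.30 and -0.18, with adjusted p-values of 0.0961, 0.146 and 0.685.

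TWIST1 had no called difference. Probe A_33_P3414591, in the coding sequence, had log2 signals between -0.14 and 0.28 on all 8 arrays, and its log2 fold changes in the 6 comparisons lay between -0.29 and 0.26 with adjusted p-values of at least 0.116. The other probe, A_23_P71073, was well above background on GFP replicate 1 (-2.16) and HuR replicate 2 (-5.72) alone, lay between -7.88 and -6.65 on the other 6 arrays, and was tested in no comparison.

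Counted together, 14 of the 15 probes passed the filter on dim signals in each comparison. In TIA1 versus HuR, 2 of 14 were called, SNAI1 and JUP, against 13.4% of all tested probes, and 8 had an adjusted p under 0.05 at any fold, against 41.5% of all tested probes. Both were higher, beside 8.50% of all tested probes called higher and 4.90% called lower. In TIAR versus HuR, 3 of 14 were called, JUP, SNAI1 and CDH1, against 10.1%, and all were higher, beside 7.06% of all tested probes higher and 3.01% lower, while 5 had an adjusted p under 0.05 at any fold, against 30.7% of all tested probes. In TIAR versus TIA1, 1 of 14 was called, CDH1, against 2.35% of all tested probes, of which 1.25% higher and 1.10% lower. The shares of the member probes, 14.3%, 21.4% and 7.14%, each rest on at most 3 probes and say nothing particular about this group of genes. The median log2 fold change over the tested member probes was 0.36 in TIA1 versus HuR and 0.20 in TIAR versus HuR, beside 0.08 and 0.05 over all tested probes.

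**Figure D3:**
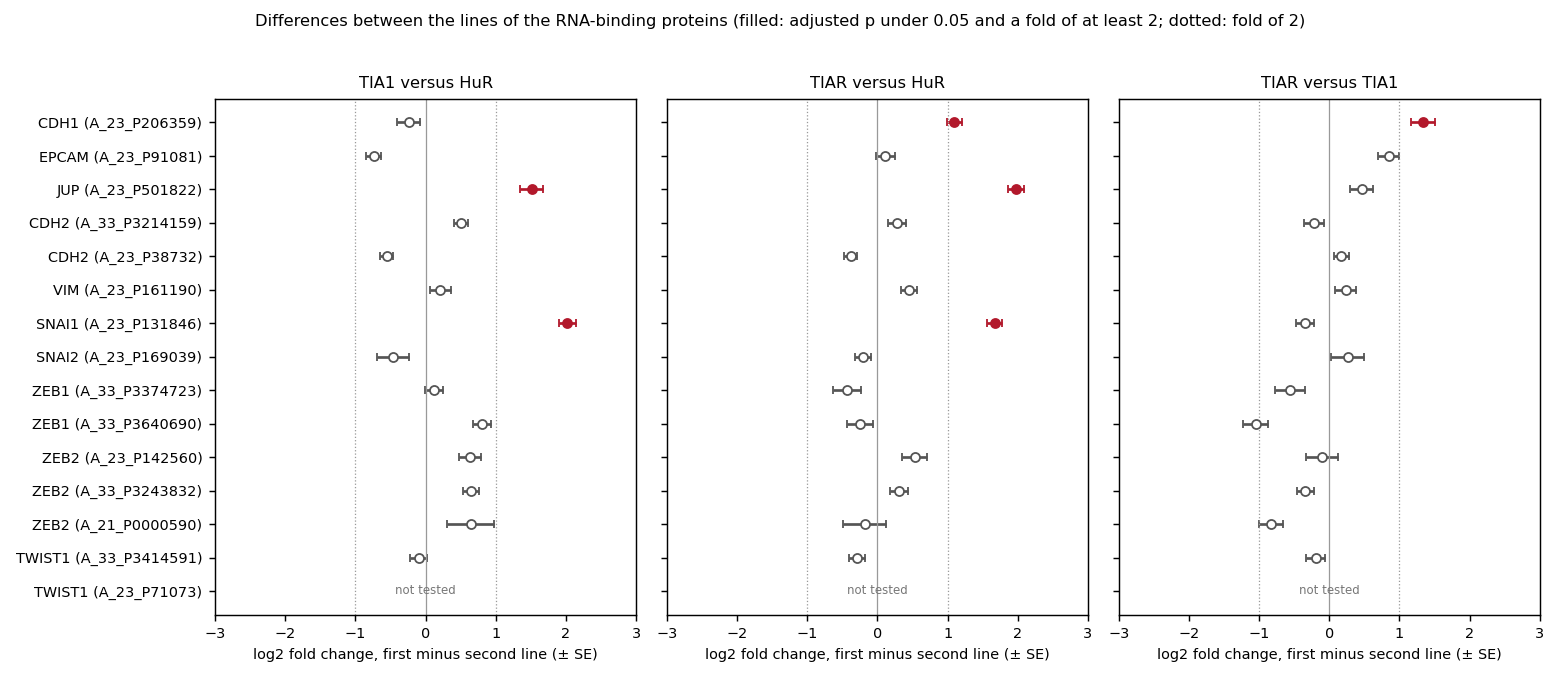
Log2 fold change, first minus second line (x axis), of the member probes (y axis) in the 3 comparisons between the lines of the RNA-binding proteins. Bars are standard errors from limma, filled points are called probes and dotted lines mark 2-fold. SNAI1 and JUP lie past 2-fold versus HuR in both TIA lines, at 1.51 to 2.02, and CDH1 lies past it in TIAR versus HuR and TIAR versus TIA1.

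Against the control line, limma called 0 of the 14 member probes and 0 of all tested probes in each of the 3 comparisons (percentage called, 0). At an unadjusted p under 0.05 it had 4 member probes in TIA1 versus GFP, 4 in TIAR versus GFP and 5 in HuR versus GFP, and 6055 of 27995, 4670 of 28537 and 4957 of 28824 probes overall. The study called its array RNAs with limma, and its methods name a paired t-test for comparing groups in general. That paired test was run here on arrays matched by replicate number, without adjustment and at a fold of at least 2. In each comparison with GFP it called 0 member probes. Of all tested probes it called 2.57% in TIA1, 1.79% in TIAR and 1.5% in HuR versus GFP. The log2 fold change of SNAI1 was 1.10 in TIA1 versus GFP (adjusted p = 0.114), 0.75 in TIAR versus GFP (adjusted p = 0.227) and -0.92 in HuR versus GFP (adjusted p = 0.188), the last turning to 0.02 with scaling by the median. JUP had 0.54, 1.00 and -0.97, with adjusted p-values of 0.383, 0.251 and 0.248, and over the alternatives these ranged from 0.19 to 1.24, from 0.52 to 1.68 and from -1.27 to -0.03, the last with scaling by the median. CDH1 had -1.30 in TIA1, 0.03 in TIAR and -1.06 in HuR, with adjusted p-values of 0.124, 0.946 and 0.193. Over the alternatives CDH1 ranged from -1.49 to -0.38 in TIA1, from -0.14 to 0.89 in TIAR and from -1.23 to 0.05 in HuR versus GFP, and with scaling by the median it had -0.60, 0.71 and -0.11. Whether GFP stood with TIAR or with the other lines in CDH1 therefore depended on the scaling.

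The GFP arrays differed from each other, and the values depended on which was kept. Without GFP replicate 1, CDH1 (log2 fold change -1.47), SNAI1 (1.07), SNAI2 and ZEB2 A_21_P0000590 (1.49) were called in TIA1 versus GFP, and CDH1 (-1.23), JUP (-1.27) and SNAI2 in HuR versus GFP. SNAI2 alone was called in TIAR versus GFP. Without GFP replicate 2, SNAI1 (1.13), SNAI2, ZEB1 A_33_P3640690 (1.25), ZEB2 A_23_P142560 (1.32) and TWIST1 A_23_P71073 were called in TIA1 versus GFP. JUP (1.31), SNAI2 and the same TWIST1 probe were called in TIAR versus GFP, and SNAI2 and that TWIST1 probe in HuR versus GFP. With GFP replicate 1 alone, 45% of all tested probes were called in TIA1 versus GFP, 41.6% in TIAR versus GFP and 47.2% in HuR versus GFP, against 11.4%, 6.39% and 8.53% with GFP replicate 2 alone. In these fits the lone GFP array was assumed to vary like the arrays of the other line.

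**Figure D4:**
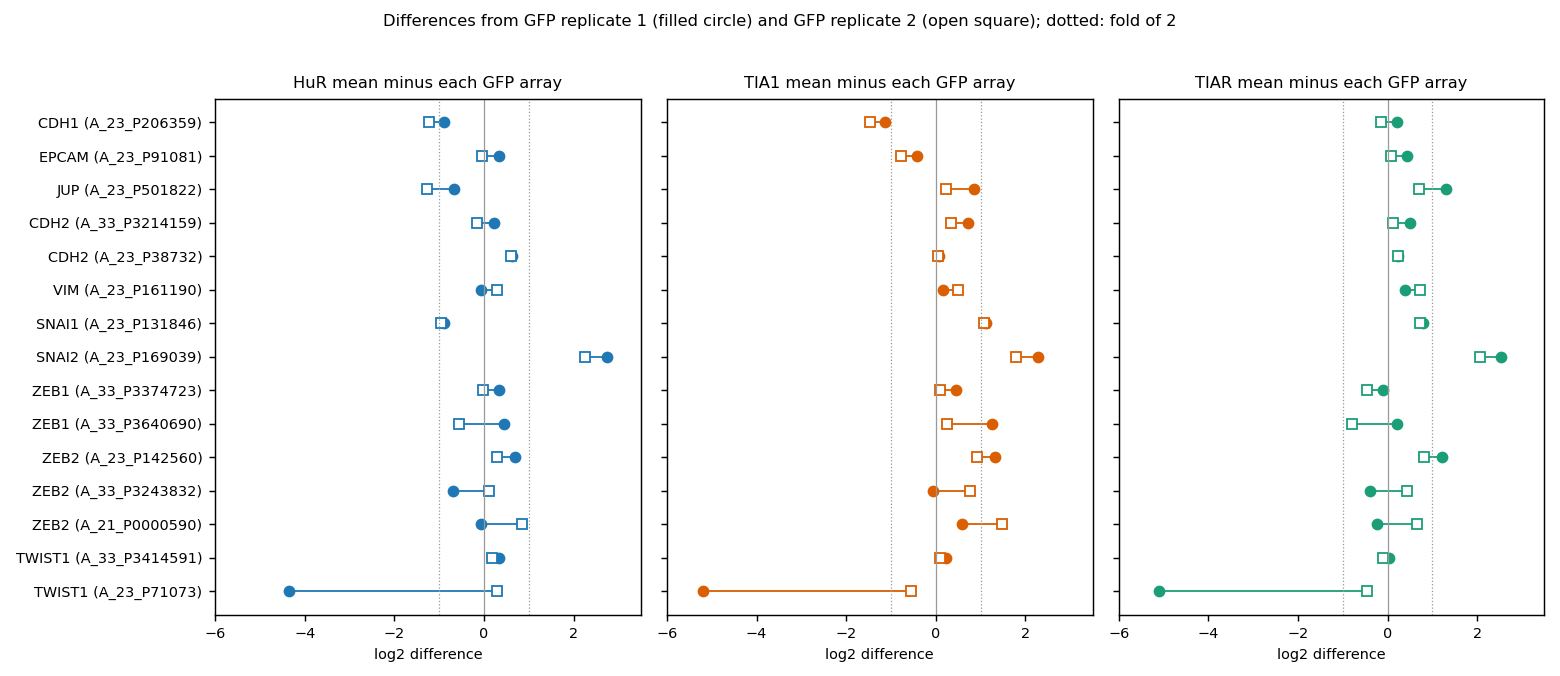
Difference in log2 signal (x axis) of the HuR, TIA1 and TIAR means from GFP replicate 1 (filled circles) and from GFP replicate 2 (open squares) for the 15 probes (y axis). Dotted lines mark 2-fold. SNAI2 lies over 2-fold higher against both GFP arrays in all 3 panels, SNAI1 differs little between the GFP arrays, and the dim TWIST1 probe spans over 4 log2 units in each panel.

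Gene lists of the same biology were read beside the members. In the epithelial adhesion and keratin list, 3 of 23 tested genes were called in TIA1 versus HuR and 4 of 24 in TIAR versus HuR, all higher, and 0 of 24 in TIAR versus TIA1. The probes called were 8.33% and 10.8% of those tested versus HuR, below and near the share over all probes. The tight-junction claudins CLDN7 and CLDN3 rose in both. CLDN7 A_23_P164284 had log2 signals of -2.66 and -2.53 in TIA1, -2.18 and -2.02 in TIAR, -4.18 and -4.37 in HuR and -1.64 and -1.92 in GFP, with HuR lowest. Its log2 fold change was 1.68 (limma adjusted p = 0.00289) in TIA1 and 2.18 (limma adjusted p = 0.0041) in TIAR versus HuR, while the other CLDN7 probe had 0.74 and 0.90, under 2-fold. CLDN3 was higher by 1.37 and 1.72 on the log2 scale. Its GFP arrays, at -1.87 and -2.37, overlapped both TIA lines, and HuR was lowest at -3.31 and -3.62.

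Among epithelial regulators, 3 of 12 tested genes were higher and 2 lower in TIA1 versus HuR, and 5 of 13 were higher and 0 lower in TIAR versus HuR. The called probes were 38.5% and 40% of those tested, beside the 13.4% and 10.1% over all probes. FOXA2, a forkhead factor of endodermal epithelia, was higher by 2.67 and 3.13 on the log2 scale in TIA1 and TIAR than in HuR. Its log2 signal was -0.13 and -0.47 in TIA1 and -0.09 and 0.42 in TIAR. GFP had -0.55 and -0.42, overlapping TIA1, and HuR was lowest with -2.91 and -3.04. GRHL1, a grainyhead factor of epithelial barriers, had log2 fold changes of 1.46 and 1.50 at A_33_P3230269, both called. Its dimmer probe A_33_P3423791 had 0.95, not called, and 1.41, called. RAB25, a vesicle GTPase of epithelial cells, had called values of 1.63 and 1.20 against HuR arrays of which only replicate 2 was well above background. The GFP arrays of RAB25, at -3.64 and -4.89, overlapped both TIA lines, and HuR was lowest. OVOL2, a zinc-finger factor that restrains mesenchymal genes, went its own way. Its log2 signal was -4.29 and -4.28 in TIA1, -0.80 and -0.84 in TIAR, -1.35 and -1.48 in HuR and -1.84 and -1.28 in GFP. It fell by 2.87 on the log2 scale in TIA1 versus HuR (limma adjusted p = 0.00178) and was 3.47 higher in TIAR versus TIA1 (limma adjusted p = 0.0056). SPINT1, a membrane protease inhibitor, rose by 1.81 in TIAR versus HuR and by 1.69 in TIAR versus TIA1, and had 0.12 in TIA1 versus HuR.

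In the mesenchymal matrix, surface and cytoskeleton list, 6 of 20 tested genes were higher and 2 lower in TIA1 versus HuR, and 4 higher and 1 lower in TIAR versus HuR, 29.6% and 18.5% of the probes tested beside 13.4% and 10.1% over all probes. The collagen gene COL5A2 was higher by 2.90 and 2.67 on the log2 scale in TIA1 and TIAR than in HuR. Its GFP arrays, at -3.22 and -3.09, lay between HuR and the TIA lines. The smooth-muscle protein gene CNN1 was higher by 2.80 and 1.61. The GFP arrays of CNN1, at -1.58 and -2.92, overlapped TIAR, and HuR was lowest. SPARC, a matricellular protein, had log2 signals of -2.44 and -2.28 in TIA1, -5.60 and -5.39 in TIAR, -5.72 and -5.93 in HuR and -1.38 and -1.37 in GFP, and it was not well above background on HuR replicate 2. SPARC thus rose in TIA1 versus HuR (log2 fold change 3.47, limma adjusted p = 0.00178) and was lower in TIAR versus TIA1 (-3.14, limma adjusted p = 0.0114). ACTA2, smooth-muscle actin, went the other way, with log2 fold changes of -1.85 and -1.65 versus HuR, both called. Epithelial and mesenchymal genes were therefore called higher side by side in both comparisons with HuR.

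Of the mesenchymal transcription factors, 1 of 14 tested genes was called in TIA1 versus HuR, ID1 (1.10), an inhibitor of helix-loop-helix factors. In TIAR versus HuR, 2 were higher and 1 was lower. The called probes were 5.26% and 21.1% of the 19 tested, beside 13.4% and 10.1% over all probes. SNAI3, the remaining Snail family gene, had 1.44 (limma adjusted p = 0.00827) in TIAR and 0.75 in TIA1 versus HuR. TWIST2 had 1.22 and 1.14 at its called probes in TIAR versus HuR. Its far brighter probe A_23_P21324 had -0.20 there, and -0.64 in TIA1 versus HuR. HMGA2, an architectural chromatin factor, had -1.26 at its called probe and 0.25 and 0.36 at the others in TIAR versus HuR. Probes of TWIST2 and HMGA2 therefore did not share a sign.

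For TGF-beta and other inducers, 4 of 25 tested genes were higher and 1 lower in TIA1 versus HuR, and 3 higher and 0 lower in TIAR versus HuR. These were 14.3% and 8.57% of the probes tested, near the 13.4% and 10.1% over all probes. The ligand BMP2 had log2 signals of -0.94 and -0.80 in TIA1, -3.44 and -3.28 in TIAR, -5.02 and -4.94 in HuR and -4.07 and -4.60 in GFP, with TIA1 far above the rest. It rose by 4.11 on the log2 scale in TIA1 versus HuR (limma adjusted p = 0.00178) and by 1.62 in TIAR versus HuR, and was -2.49 in TIAR versus TIA1, a call as well. The Notch ligand JAG1 was higher by 1.17 and 1.57. Its GFP arrays, at -0.78 and -0.57, overlapped TIA1, and HuR was lowest at -1.95 and -1.35. The receptor NOTCH1 was called at A_23_P60387 in TIA1 versus HuR (1.28), while its brighter probe A_33_P3370424 had 0.70, under 2-fold. WWTR1 A_33_P3605352 was not well above background in HuR and was at least 2.17-fold higher in TIA1 and 2.26-fold higher in TIAR, while A_23_P29769 had -0.37 and 0.70. EGF had -1.43 in TIA1 versus HuR, a call, but was well above background on only 1 of the TIA1 arrays. Of 17 tested genes for the turnover and corepressors of the Snail protein, 1 was called in TIA1 versus HuR, HDAC2 at the dimmer of its probes (1.02, with -0.10 at the other), and 0 in the other comparisons, 4.55% of the probes tested in the former. All 6 lists had 0 calls against GFP.

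**Figure D5:**
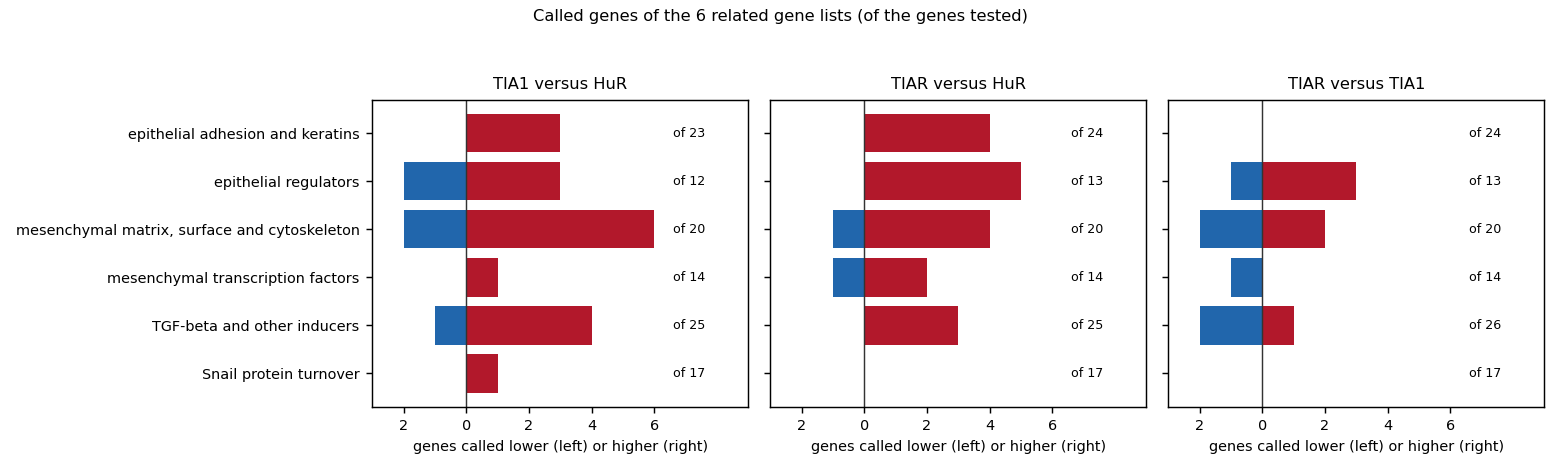
Number of genes called lower (left of 0) or higher (right of 0) on the x axis in each of the 6 lists (y axis), in the 3 comparisons between the lines of the RNA-binding proteins. The number of genes tested stands at the right of each row, and a gene counts as called when at least 1 of its probes was. Most calls versus HuR are higher, as are most calls over all probes (8.50% higher and 4.90% lower in TIA1 versus HuR, 7.06% and 3.01% in TIAR versus HuR).

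The genes whose pattern was most like that of a member were found by Pearson's r over the 8 arrays among the probes well above background on all of them (24953 other probes for SNAI1 and JUP, 24954 for SNAI2). All points share the 4 lines, and with so many probes and so few arrays high values are common, so these are descriptions. Nearest to JUP were GATA6 (r = 0.997), a zinc-finger factor of endoderm, UBE2Q2P1 (0.990) and SSH2 (0.990). Nearest to SNAI1 were SNAP25 (0.994), DLG4 (0.992) and ANKRD36B (0.991), the former pair known from synapses. SNAI2, at background in GFP, was nearest to CCDC112 (0.991), WDFY3 (0.990) and SEMA6A (0.987). Without GFP replicate 1 the values for these 9 genes were 0.976 to 0.998.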

How the data were processed

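RNA of 8 samples was measured on Agilent human 8x60K arrays. The authors deposited the scanner output of Feature Extraction 10.7.3.1, in which the processed signal is a background-subtracted intensity, not normalized between arrays, and a table of log2 values. How that table was normalized is not given in the sources used here, and limma is named in the submitters' processing notes. Processed signals were put on the log2 scale relative to the 75th percentile of the array, without outlier spots, and a probe took the mean of its copies. Limma 3.58.1 in R 4.3.3 tested, on the 4 arrays of a comparison, the probes that both arrays of either line showed well above background, with Benjamini-Hochberg adjustment over all tested probes, and called them at an adjusted p under 0.05 and a fold of at least 2. The code was tested on simulated data. The number of arrays limits the precision.

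The 8 arrays shared 1 slide and 1 scan. Members, lists, tests and alternatives were chosen with earlier results of these data known. Named are all member probes, the 3 called genes of each list with the largest change in TIA1 and in TIAR versus HuR, the genes of the expressed proteins and the 3 nearest patterns of the 3 members with the widest range. A few list genes that this names are left out of the text. Positions are those of the hg19 design, and promoters come from RefSeq on GRCh38.p14. No protein sequences and no genome were used here. Plots were drawn with matplotlib 3.10.9.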

Additional observations from a re-analysis of the deposited data

How the results depend on the processing

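Alternatives were testing dim probes too, testing those seen on all 4 arrays, quantile normalization, normexp (offset 50), both of these, the authors' log2 table, scaling by the median, all 8 arrays in one fit, the replicate block, the paired test of the methods and leaving out each array. In TIA1 versus HuR the 2 member probes called became 0 with the adjusted paired test, and 1 to 2 without 1 array (SNAI1 alone without HuR replicate 2, SNAI1 and the dim TWIST1 probe A_23_P71073 without HuR replicate 1). In TIAR versus HuR the 3 became 0 with the adjusted paired test and 0 to 3 without 1 array, 0 without HuR replicate 1 and 1 without HuR replicate 2. In TIAR versus TIA1 the 1 became 0 with no filter, normexp, normexp and quantile normalization, the authors' table, the replicate block, the paired test with and without adjustment and without any 1 array, and 2 with scaling by the median, which added ZEB1 A_33_P3640690. Over all probes there were 0 calls too with the adjusted paired test in each of these 3 comparisons, and in TIAR versus TIA1 with no filter or with the replicate block. The calls over all probes were also lost in TIAR versus HuR without HuR replicate 1. In TIAR versus TIA1 all or nearly all of them were lost, whichever array was left out. Against GFP the 0 became 4 (TIA1), 2 (TIAR) and 2 (HuR) with all 8 arrays in one fit, where 9.03%, 5.93% and 3.94% of all probes were called, and 0 to 5, 0 to 3 and 0 to 3 without 1 array. Deviations of same-numbered replicates were at most weakly correlated (-0.0896 to 0.184 over probes, 2 pairs each). With 2 arrays per line this cannot decide whether the replicate numbers pair the samples. The paired fit with the replicate block changed no other count, with 2 calls in TIA1 and 3 in TIAR versus HuR. The other settings left the counts within 1.5 times. Scaling by the median moved the median log2 fold change of all probes from 0.08 to -0.16 in TIA1 versus HuR, from 0.05 to -0.21 in TIAR versus HuR and from -0.04 to 0.90 in HuR versus GFP. No called member value changed sign under any of these. The probes of CDH1, SNAI2 and the NR_033258 transcript of ZEB2 are dim, and the part of background in their precision was not tested. The cause of the changes was not tested.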
